A study of Psophocarpus tetragonolobus with 12 samples.

Results

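Of the 30392 genes in the winged bean pod transcriptome, 117 were low at Day 15 after anthesis, at least 8 times higher at Day 30 and still above 0.5 of their peak at Day 45. They were chosen by their own values, with 3 conditions: a Day 30 level of 20 FPKM or more (fragments scaled by gene length and by the number of mapped fragments), a ratio of Day 30 to Day 15 of at least 8 after adding 1 FPKM to each, and 2 times the Day 45 value exceeding the larger of Day 30 and Day 37, again after adding 1. The rise to Day 30 and the retention at Day 45 are therefore the rule itself and not findings. Among 22459 genes that reached 1 FPKM in at least 1 stage, 0.788% met both Day 30 conditions (177 genes) and 0.521% met the full rule. The 60 genes that met the Day 30 conditions but fell short at Day 45 are used for comparison. Of the 7757 genes at 20 FPKM or more at Day 30, the members were 1.51%.

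All pods came from the winged bean (Psophocarpus tetragonolobus) line FP15, which has purple pods, grown in a growth chamber, and the groups differed in the age of the pod, counted in days after anthesis and written here as Day 15, Day 30, Day 37 or Day 45. For each age there were 3 libraries, each of another plant, made from polyadenylated RNA with no record of strand, 12 in all, but the table analysed here gives every gene a single whole-number FPKM per age. Where 4 values follow the name of a gene or list, they are its FPKM at the 4 ages in that order. No spread between plants could be calculated, no test was run, and words such as higher and lower refer only to the ratios given. Rounding, 0.5 FPKM either way, is the only error known, so a listed 0 can stand for anything under that size. Genes are placed on the assembly of Ma3, a green-podded line, and the effect of sequence differences between the lines was not tested.

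A legume pod first grows, and its wall later lays down secondary cell walls while the seeds inside mature. Phenylpropanoid metabolism, which starts from phenylalanine, feeds both lignin, the polymer that stiffens cell walls, and the flavonoids, which include the purple anthocyanins. The 4 genes checked for fruit identity stood at a summed 217, 301, 352 and 326 FPKM over the 4 ages, led by the match to AGAMOUS, a MADS-box gene of carpel identity. Of the 5 seed markers, 3 were higher at Day 45 than before, led by a vicilin-like gene at 0, 4, 29 and 58 FPKM, while an 11S globulin gene fell from 148 to 12 FPKM and the match to ABI3, a regulator of seed maturation, stayed at 0 or 1 FPKM. Their sum was 148, 77, 86 and 126 FPKM, and at Day 15 all of it came from the 11S globulin gene. Most storage protein genes that the study tabulated were not among these markers. The putative 2S albumin gene Psote06G0099600, for one, was at 382, 853, 840 and 786 FPKM. An 18 kDa seed maturation gene, Psote05G0226200, was at 31, 13, 51 and 114 FPKM. The 4 markers of lignifying cells summed to 11, 333, 214 and 103 FPKM. The chloroplast marker, a match to the light-harvesting gene LHCB6 (Psote03G0131300), was at 283, 267, 264 and 128 FPKM, lower at the last age. None of these 14 markers was a member, and the part of seed tissue, lignifying cells or green tissue in the members' values was not tested. The labels name the tissue as pod, and whether seeds were included is not stated there. The study's methods report sampling both pod and seed tissue of FP15 at these ages, without saying whether the libraries held seed. In such bulk tissue, more cells of a type and more RNA per cell cannot be told apart.

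The members' levels were spread over a wide range. At Day 15 their median was 3 FPKM, with 14 listed at 0, 64 at 1 to 5 FPKM and 39 above 5 FPKM, and the highest was 72 FPKM. The median then moved to 65, 97 and 126 FPKM. The middle 50% of members lay between 37 and 165 FPKM at Day 30 and between 60 and 281 FPKM at Day 45. At Day 30, 46 members were below 50 FPKM, and at Day 45, 67 members were at 100 FPKM or more and 18 at 500 FPKM or more. Most members were thus at a moderate level at Day 30, while 11 of them were already among the 100 highest genes of that stage.

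The members took up 0.115% of the summed FPKM of all genes at Day 15 and 3.46%, 4.76% and 5.72% at the later ages. They are 0.385% of the genes, but the rule asks for low Day 15 and high Day 30 values, so the direction of these shares follows from it. FPKM is scaled by gene length, so this is a share of length-scaled signal and not of reads. The 60 genes that were not kept went from 0.0417% to 1.82%, then to 1.42% and 0.602%, and their lower share at Day 45 likewise follows from the rule. The number of members among the 100 highest genes of a stage was 0 at Day 15 and then 11, 12 and 17. The 10 highest members held 61% of the members' sum at Day 30 and 55.7% at Day 45.

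**Figure D1:**
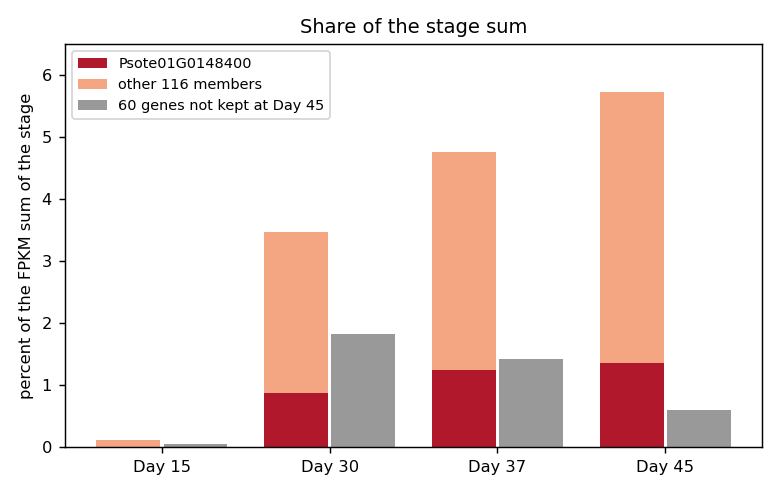
Percent of the summed FPKM of all genes (vertical axis) at each of the 4 stages, with 1 deposited value per gene and stage and no error bars. The left bars are the 117 members, split into Psote01G0148400 and the others, and reach 5.72% at Day 45, while the right bars, the 60 genes not kept, end at 0.602%.

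A single gene, Psote01G0148400 (Chr01.1, 22187961 to 22195047), held 23.6% of the members' sum at Day 45. It was listed at 6, 6748, 9924 and 10188 FPKM. Its rank among all genes went from 14437 at Day 15 to 6, 2 and 3 in the later stages, and it made up 1.35% of the summed FPKM at Day 45. The sources used here give it no name or function. The gene next to it in the table on 1 side, PtCUC2b (Psote01G0148300), matches a NAC-domain regulator of organ boundaries in Arabidopsis. It lies 56.2 kb away and was listed at 0 in all 4 stages. The neighbour on the other side, 13.2 kb away, was at 8, 21, 29 and 35 FPKM. The very high level was therefore that of 1 gene model and was not shared by its neighbours.

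The next members by Day 45 level were Psote05G0192400 at 72, 2112, 2905 and 3099 FPKM and Psote03G0160300 at 5, 1416, 2500 and 2987 FPKM. Both were higher at each successive age. Psote03G0240200 followed with 38, 693, 965 and 1391 FPKM, then Psote05G0130400 with 6, 378, 710 and 975 FPKM and Psote08G0176600 with 17, 383, 497 and 823 FPKM. These genes are unannotated in the sources used here and are printed for their level alone. The other 4 of the 10 highest are a chalcone isomerase, a gene inside the BGLU10 gene model and 2 genes of a run on Chr09.4, all given below.

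After Day 30 the members parted into 3 courses. Between Day 30 and Day 45, 63 members rose further by at least 1.5 times on FPKM + 1 (53.8%), 41 stayed within 1.5 times and 13 declined by at least 1.5 times (11.1%). Of 7227 other genes that met the Day 30 minimum and the Day 45 condition, 5.81% rose by that much and 5.24% declined. Over all genes at 20 FPKM or more at Day 30, 6.23% rose and 10.4% declined. The rule limits how far a member could decline but sets no upper limit, so these shares describe the members and test nothing. The size of the plateau group depends on the limit chosen: it held 71 genes with a limit of 2 times and 23 with a limit of 5 to 4. Moreover, 46 members rose by at least 2 times (39.3%, against 1.85% of the same other genes) and 9 by at least 4 times (7.69%, against 0.125%).

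**Figure D2:**
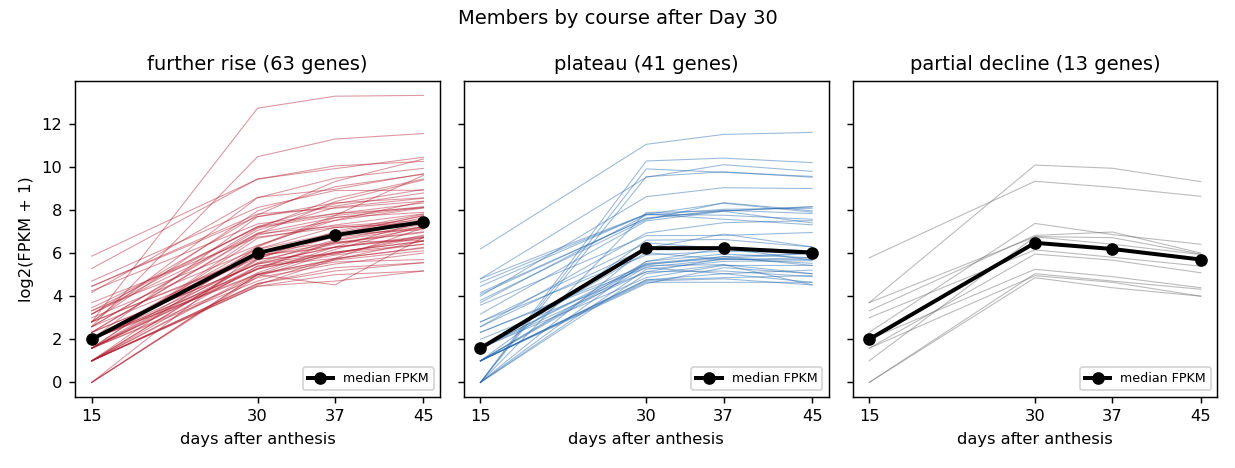
log2(FPKM + 1) of each member (thin lines) against days after anthesis, in 3 panels by course after Day 30, with the median FPKM of the panel in black. The 63 genes of the left panel have medians of 63 and 173 FPKM at Day 30 and Day 45, the 41 of the middle panel 74 and 64 FPKM, and the 13 of the right panel 88 and 51 FPKM.

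The interval from Day 30 to Day 37 carried more of this change than the one from Day 37 to Day 45. The median member gained 3.91 in log2(FPKM + 1) from Day 15 to Day 30, 0.49 from Day 30 to Day 37 and 0.21 from Day 37 to Day 45, while the median of all measured genes was 0 in each interval. At Day 37, 97 members stood above their Day 30 value, 19 below it and 1 level with it. From Day 30 to Day 37, 51 members rose by at least 1.5 times (43.6%, against 1.66% of the other genes defined above) and 0 declined by that much (against 0.484%). From Day 37 to Day 45, 23 rose (19.7%, against 1.91%) and 7 declined (5.98%, against 2.17%). Altogether 73 members were higher at each successive stage (62.4%, against 23.5% of the other genes after Day 30), and 16 fell in both intervals after Day 30 (13.7%, against 20.9%). The highest value fell at Day 45 in 74 members, at Day 37 in 24 and at Day 30 in 19.

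On the log2 scale, a median of 85.2% of a member's whole rise from Day 15 to Day 45 was present at Day 30. The rule, which asks for a ratio of 8 by Day 30, sets much of this share, and no comparison set was calculated for it. The members' summed FPKM rose from 26911 at Day 30 to 43191 at Day 45, a gain of 16280, of which the 63 genes that rose further gave 98.9%, the 41 plateau genes 7.71% and the 13 declining genes -6.57%. Psote01G0148400 gave 21.1% of it. That gene sits close to the limit between the courses, with a ratio of Day 45 to Day 30 of 1.51, and Psote05G0192400 sits just under the limit with 1.47.

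**Figure D3:**
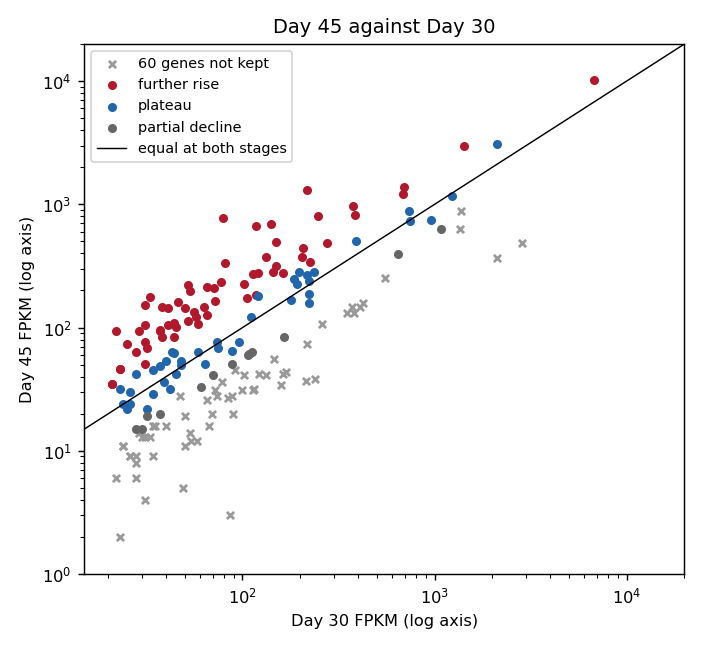
Day 45 FPKM (vertical log axis) against Day 30 FPKM (horizontal log axis) for the 117 members, coloured by course, and the 60 genes not kept (crosses), with the line of equal values. Members run from 0.512 to 9.74 times their Day 30 value on FPKM + 1, and the crosses lie below the line because the rule put them there.

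The largest relative gain after Day 30 belonged to Psote05G0314100 (Chr05.3), which was at 3, 79, 213 and 778 FPKM, a ratio of Day 45 to Day 30 of 9.74. It went from rank 1666 at Day 30 to rank 71 at Day 45, and gained more FPKM in the last interval than over the whole time before. In log2(FPKM + 1) the last interval gave less, 1.86 against 4.32 from Day 15 to Day 30. Next came both gene models of the BGLU10 locus at 6.05 and 5.70, then Psote05G0098100 at 1, 33, 77 and 176 FPKM and Psote09G0109200 at 5, 141, 369 and 692 FPKM. Psote05G0161800 differed from these in dipping first, from 31 FPKM at Day 30 to 22 FPKM at Day 37, before it reached 105 FPKM at Day 45.

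At the other end, Psote03G0377200 declined most, from 165 FPKM at Day 30 to 115 and 84 FPKM, a ratio of 0.512. Psote06G0261100 (2, 30, 24 and 15 FPKM), Psote05G0124800 (2, 61, 50 and 33 FPKM) and Psote08G0105400 (0, 28, 20 and 15 FPKM) followed. The fifth was a match to a BEL1-like homeodomain protein, given with the regulators. Of the 13 declining members, 12 had their highest value at Day 30 and 1 at Day 37.

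Of the 10 largest rises to Day 30 on FPKM + 1, 6 were of genes listed at 0 at Day 15, for which no ratio is given. Psote09G0100800 went from a listed 0 to 1235 FPKM, Psote09G0100900 to 958 FPKM and Psote09G0100700 to 745 FPKM, all of them neighbours on Chr09.4. Psote06G0395200 went from a listed 0 to 235 FPKM, Psote02G0131800 to 75 FPKM and Psote07G0069800 to 65 FPKM. Of genes with a value at Day 15, Psote01G0148400 rose 964 times, Psote03G0160300 236 times, Psote02G0358600 83.3 times (12 to 1082 FPKM) and Psote01G0305600 54.5 times (1 to 108 FPKM), all on FPKM + 1. At the low end, where Day 15 is at 1 FPKM, rounding alone leaves such a ratio loosely fixed.

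The limits of the rule passed through closely spaced genes. Just inside the Day 30 minimum stood Psote03G0290500 and Psote04G0131700, both at 21 FPKM, and just outside Psote01G0113100 and Psote03G0217100, both at 19 FPKM. At the ratio of 8, Psote02G0208400 (4 to 39 FPKM) and Psote03G0283000 (27 to 223 FPKM) were in at exactly 8, and Psote03G0374100 (11 to 93 FPKM, a ratio of 7.83) and Psote03G0061000 (3 to 30 FPKM, a ratio of 7.75) were out. The last of these went on to 125 and 289 FPKM. At the Day 45 condition, Psote06G0395800 (0.508 of its peak) and Psote03G0377200 (0.512) were in, and Psote01G0128100 and Psote02G0138800 (both at 0.5) were out.

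The study's tables held 12 of the 117 members (10.3%), all with a name, against 123 of the 7757 genes at 20 FPKM or more at Day 30 (1.59%), some of them without one. These are tables of pigment, lignin and storage protein genes, so this share reflects which genes were tabulated as well as which were members. The names are matches to genes of Arabidopsis or other legumes and not tested functions. Of the 12, 5 rose further, 4 stayed at a plateau and 3 declined in part. The remaining 105 members carry no name in the sources used here, and nothing is said of their function.

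**Figure D4:**
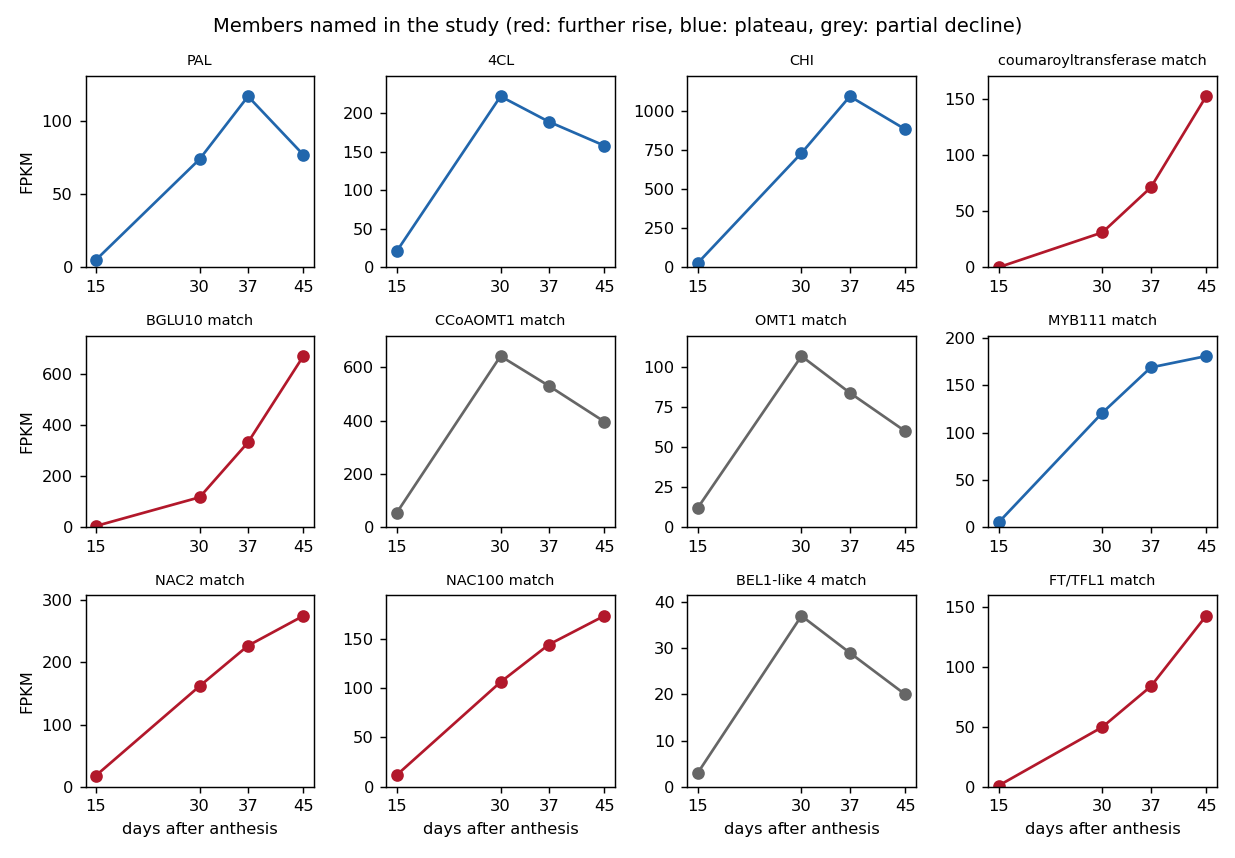
FPKM (vertical axis, from 0 in each panel) against days after anthesis for the 12 members with a name, coloured by course after Day 30. The matches to the coumaroyltransferase and BGLU10 climb steeply to 152 and 672 FPKM at Day 45, while CCoAOMT1, OMT1 and BEL1-like 4 peak at Day 30.

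Both the first and the third enzyme of the general phenylpropanoid route had a copy among the members. Phenylalanine ammonia lyase (PAL), which deaminates phenylalanine, was represented by Psote08G0003200 (Chr08.1), at 5, 74, 117 and 77 FPKM. The other 3 PAL genes missed the ratio of 8 but also rose to Day 37. PAL1 (Psote04G0213400) was at 75, 342, 425 and 326 FPKM and PAL4 (Psote05G0268700) at 32, 151, 161 and 121 FPKM. PAL2 (Psote04G0075900), at 5, 19, 43 and 60 FPKM, was also under the Day 30 minimum and, unlike the member, kept rising to Day 45. All 4 were at least 2 times higher at Day 30 than at Day 15 on FPKM + 1, a size reached by 9.47% of all measured genes, with 13.7% lower by as much. The member was thus the PAL gene with the steepest relative rise, while PAL1 kept the highest level.

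Cinnamate 4-hydroxylase (C4H), the enzyme between them, had no member, although both its genes were at least 2 times higher at Day 30. Psote08G0082200 reached a ratio of 5.69, from 50 to 289 FPKM. The ligase 4CL, which activates the acids to their CoA esters, was represented by Psote06G0323800 (Chr06.4), at 21, 222, 189 and 158 FPKM. Of the other 4 genes named 4CL, the highest, Psote03G0374500, was at 31, 46, 57 and 68 FPKM, and 1 was 2 times higher at Day 30, Psote07G0204400 at 8 and then 18 FPKM. At Day 15 the member was below Psote03G0374500, and from Day 30 onward it was the highest 4CL gene.

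Chalcone isomerase (CHI), which closes the ring of chalcones to form flavanones, gave the highest named member. Psote04G0009600 (Chr04.1, 1764576 to 1765598) was at 27, 732, 1096 and 885 FPKM, and its rank went from 5511 to 54. It is the last of 3 CHI genes that follow one another in the table. The middle one, Psote04G0009500 (1743786 to 1745931), began at the same level and was at 28, 101, 95 and 94 FPKM, while the first, Psote04G0009400 (1733409 to 1736499), fell through 73, 41, 28 and 16 FPKM. The 3 neighbours therefore went from levels of 27 to 73 FPKM at Day 15 to levels of 16 to 885 FPKM at Day 45, and the highest of them changed from the first to the last. Where copies share sequence, reads that fit more than 1 of them could have been assigned to either, and their likeness was not examined.

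The lists for chalcone synthase and for the flavonoid enzymes F3H, F3'H, DFR and ANS had no member. Among the 12 chalcone synthase genes, which make the substrate of CHI, 5 were at least 2 times higher at Day 30 and 0 lower by that much. The highest, Psote01G0233200, was at 49, 213, 287 and 291 FPKM, a ratio of 4.28 to Day 30 followed by a plateau, below the limit of 8. No gene of the lists for F3H (9 genes), F3'H (8), DFR (5) or ANS (3), the hydroxylases and later enzymes of anthocyanin synthesis, reached that limit. At least 2 times higher at Day 30 were 2, 3, 1 and 0 of them, and lower by as much 1, 2, 1 and 0. The highest ANS gene at Day 15, Psote01G0255900, fell through 266, 226, 110 and 53 FPKM. The highest DFR gene at Day 15, Psote08G0200700, fell through 164, 94, 60 and 33 FPKM. Others rose to Day 30, such as the DFR gene Psote03G0413000 at 56, 190, 181 and 143 FPKM and the F3H gene Psote02G0110700 at 143, 374, 363 and 418 FPKM.

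Among the 19 genes listed as glycosyltransferases, acyltransferases and glucosidase-like genes, 2 were members, and both rose further. In Arabidopsis the acyltransferase adds a coumaroyl group to the sugar of anthocyanins, and BGLU10 then adds glucose to that group. The match to the coumaroyltransferase, Psote03G0355100 (Chr03.5, 20784970 to 20788631), was listed at 0 at Day 15 and was at 31, 71 and 152 FPKM in the later stages. The match to BGLU10, Psote04G0199300 (Chr04.2, 12805390 to 12843018), was at 4, 117, 333 and 672 FPKM. Both thus kept rising in each interval after Day 30. The other 2 coumaroyltransferase matches differed, at 3 FPKM in every stage for Psote05G0028800 and at 26, 17, 13 and 9 FPKM for Psote09G0046300. The second BGLU10 match, Psote05G0090700, was at 0, 2, 3 and 3 FPKM, and BGLU46 (Psote01G0130800) came near the rule at 2, 16, 31 and 97 FPKM.

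The BGLU10 gene model spans 37.6 kb and overlaps 3 others. One of them, Psote04G0199400 (12811701 to 12812690), lies wholly within it and is itself a member, at 8, 217, 638 and 1317 FPKM. It was 1.85, 1.92 and 1.96 times the BGLU10 model at Day 30, Day 37 and Day 45. Since no strand is recorded for the libraries, whether reads from the pair were told apart by strand is not known. How many reads they share was not tested. The other overlapping models moved less from Day 15 to Day 30: Psote04G0199500 was at 68, 51, 56 and 45 FPKM and Psote04G0199600 at 22, 75, 111 and 112 FPKM. In all, 7 members overlap another gene model (5.98%, against 18.4% of genes at 20 FPKM or more at Day 30).

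Both methyltransferases that act on lignin precursors had a member, and both declined after Day 30. The match to CCoAOMT1, which methylates caffeoyl-CoA, was Psote03G0183300 (Chr03.1), at 54, 642, 530 and 396 FPKM. The match to OMT1, an enzyme that methylates caffeate-derived and flavonoid compounds, was Psote02G0121400 (Chr02.1), at 12, 107, 84 and 60 FPKM. A second OMT1 match close to it, Psote02G0121600, was at 13, 132, 79 and 41 FPKM and missed the rule only at Day 45. Of the 9 measured genes in this list, 5 were at least 2 times higher at Day 30 and 2 lower.

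Matches to 2 laccases, enzymes that join lignin units, met the Day 30 conditions like the methyltransferases but were not kept. The match to IRX12 (Psote05G0095400) was at 1, 216, 169 and 74 FPKM, and the match to LAC17 (Psote05G0104400) at 2, 86, 11 and 3 FPKM. Both belong to the 60 genes that failed the Day 45 condition, as does the second OMT1 match, and these 3 are all the named genes of that group. MYB58, an activator of lignin genes in Arabidopsis, has a match (Psote03G0302300) that stayed under the Day 30 minimum at 1, 19, 23 and 17 FPKM. Named genes of lignin synthesis thus ran from a fall to 3 FPKM in LAC17 to the kept 396 FPKM of CCoAOMT1, with OMT1 copies on both sides of the limit.

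Of the regulators, the match to MYB111, an activator of flavonol synthesis in Arabidopsis, was the only member among 29 measured genes of the MYB list. Psote06G0059600 (Chr06.1) was at 5, 121, 169 and 181 FPKM. Its ratio of Day 45 to Day 30 was 1.49, just inside the plateau. Over the list, 3 MYB genes were at least 2 times higher at Day 30 and 8 lower. PtMYB113a (Psote05G0036500), which matches regulators of anthocyanin synthesis, moved the other way, at 30, 11, 5 and 4 FPKM.

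NAC transcription factors gave 2 members that both rose further. Psote03G0334800 (Chr03.5), a match to NAC2, was at 18, 162, 227 and 275 FPKM, and its neighbour by number, the NAC055 match Psote03G0334700, was at 5, 6, 7 and 11 FPKM. Psote06G0259600 (Chr06.4), a match to NAC domain-containing protein 100, was at 12, 106, 144 and 173 FPKM. The other 5 genes of the NAC list moved less than 2 times to Day 30. Psote01G0294000 (Chr01.5), a match to BEL1-like homeodomain protein 4 of the TALE class, was at 3, 37, 29 and 20 FPKM. It and the NAC100 match come from the list of 34 transcription factors tied to storage proteins, of which 29 were measured, 7 were at least 2 times higher at Day 30 and 5 lower.

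Psote05G0180000 (Chr05.2) is a match to FT and TFL1, small proteins that in Arabidopsis promote or delay flowering. It was at 1, 50, 84 and 143 FPKM, higher at each stage. The second such match, Psote09G0083200, was at 3, 1, 1 and 0 FPKM. The WRKY (14 genes), LBD (4), AP2/ERF and EIN3 (15) and bHLH and WD40 (6) lists held no member.

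None of the 25 globulin and legumin, 18 albumin or 8 putative 2S albumin genes tabulated by the study met the rule, and neither did any of the 60 genes tabulated for the seed protein interval on Chr03.1, of which 51 were measured and 24 were at 20 FPKM or more at Day 30. Only 3 of the globulin and legumin genes, 0 of the albumin genes and 1 of the putative 2S albumin genes passed the Day 30 minimum of 20 FPKM, so few of them could have met it. The putative 2S albumin gene Psote07G0197200, at 0, 18, 23 and 80 FPKM, missed only the Day 30 minimum. The 105 members without a name could not be checked for storage proteins.

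By position, which the rule did not use, 26 of the 117 members (22.2%) lay in 11 groups in which each start was within 100 kb of the next with at most 5 other genes between. There were 9 pairs and 2 runs of 4, and in 7 of the groups the members were directly adjacent. Of the 60 genes not kept, 9 lay in 4 such groups (15.0%), and of all 7757 genes at 20 FPKM or more at Day 30, 92.6% did, since so large a set is dense along the scaffolds. The measure depends on the size of the set, and no test of it was run. The grouped members held 31% of the members' summed FPKM at Day 45. Whether neighbours resemble one another in sequence was not examined.

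**Figure D5:**
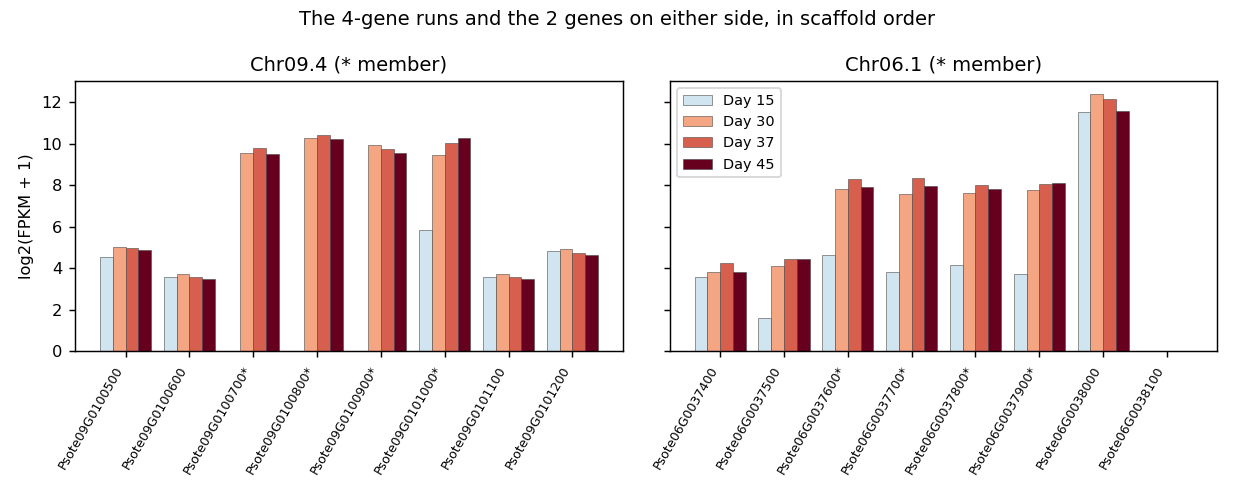
log2(FPKM + 1) (vertical axis) at the 4 stages for the members of both 4-gene runs (starred) and the 2 genes on either side, in their order on Chr09.4 (left) and Chr06.1 (right). On Chr09.4 the starred genes reach 731 to 1220 FPKM at Day 45 between flanking genes at 10 to 28 FPKM, and on Chr06.1 the next gene by position is at 3010 FPKM.

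The run on Chr09.4 (6602188 to 6620180, 18 kb) was the most abundant. Psote09G0100700 was at 0, 745, 873 and 731 FPKM, Psote09G0100800 at 0, 1235, 1355 and 1172 FPKM and Psote09G0100900 at 0, 958, 857 and 753 FPKM. The fourth gene, Psote09G0101000, was already at 57 FPKM at Day 15 and was then at 686, 1054 and 1220 FPKM. The first 3 were thus listed at 0 and then held a plateau, and only the fourth rose further. The 2 genes before and the 2 after the run stayed between 10 and 31 FPKM in all stages. Together the 4 genes made up 0.514% of the summed FPKM at Day 45.

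The run on Chr06.1 (4519095 to 4543540, 24.4 kb) was more uniform. Its genes, Psote06G0037600, Psote06G0037700, Psote06G0037800 and Psote06G0037900, were at 24, 13, 17 and 12 FPKM at Day 15 and at 222, 186, 193 and 216 FPKM at Day 30. At Day 37 they were at 317, 323, 253 and 261 FPKM and at Day 45 at 238, 248, 227 and 269 FPKM, a plateau in every case. The next gene by position, Psote06G0038000, was high throughout, at 2935, 5356, 4460 and 3010 FPKM, and Psote06G0037500, just before the run, followed the course of the run at a lower level of 2, 16, 21 and 21 FPKM.

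The members of some pairs kept a similar proportion from Day 30 on, as did the models of the BGLU10 locus. Psote05G0315200 and Psote05G0315300 on Chr05.3 were at 121 and 63 FPKM at Day 30 and at 277 and 147 FPKM at Day 45, ratios of 1.92 and 1.88. Psote02G0269300 and Psote02G0269400 on Chr02.5 also kept a ratio of 1.73 to 1.75 from Day 30 on. The second model lies inside the first, so whether their reads were told apart is not known. Psote01G0321900 and Psote01G0321600 on Chr01.5 were in ratios of 2.53, 2.45 and 2.31 over the same ages. Psote09G0041100 and Psote09G0040900 on Chr09.2, with a gene listed at 0 between them, were less even, in ratios of 3.21, 2.69 and 3.41. They were at 804 and 236 FPKM at Day 45. Other pairs split: on Chr02.5, Psote02G0358600 declined from 1082 to 635 FPKM between Day 30 and Day 45 while the adjacent Psote02G0358700 rose from 71 to 210 FPKM. The coumaroyltransferase match also has a member near it, Psote03G0354800, at 1, 40, 51 and 54 FPKM.

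The members lay on 26 of the 45 scaffolds. As a share of the genes at 20 FPKM or more at Day 30 (1.51% over all chromosomes), they were most frequent on chromosome 6, with 22 of 817 genes (2.69%), and least on chromosome 7, with 3 of 626 (0.479%). Against the study's mapped trait intervals, 5 of the 69 such genes inside a pod pattern interval on Chr09.4 were members (7.25%), 4 of them being the run described above and the fifth Psote09G0109200. A pod length interval on the same scaffold held the same 5 members among 99 such genes (5.05%). The other pod pattern interval examined, on Chr03.1, held 0 of 99. Of the other pigment intervals, those for seed coat colour on Chr05.1 held 0 of 106 and 0 of 20, and that for calyx colour on Chr02.5 held 3 of 54 (5.56%). In the seed protein interval on Chr02.1, 6 of 109 were members (5.50%), the OMT1 match among them. The other seed protein intervals held 7 of 266 on Chr03.5 (2.63%), 2 of 103 on Chr02.5 (1.94%), 1 of 318 on Chr07.2 (0.314%) and 0 of 89 on Chr03.1. Intervals for branch, seed weight and other traits also held members, at most 8 of 312 (2.56%), for total branch number on Chr03.5. These intervals are broad and overlap one another, and the counts are positions only.

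The members' gene models had a median span of 2583 bp from start to end, against 3598 bp for all genes at 20 FPKM or more at Day 30 and 2124 bp for the 60 genes not kept. Models under 500 bp made up 4 of the members (3.42%, against 4.74% of genes at 20 FPKM or more at Day 30). FPKM divides by gene length, so a level from a short gene rests on fewer reads than the same level from a long one. The span given here includes any introns and need not be the length used for that scaling.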

How the data were processed

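Pods of line FP15 were sampled at 4 stages with 3 libraries each, grouped by their labels. The authors cleaned the reads with fastp, aligned them with HISAT2 (2.0.5) and counted them with featureCounts (1.5.0-p3), tools and versions named by the submitters' processing notes. Their deposited FPKM values are whole numbers, so the unit is taken as a score, that is FPKM after rounding. The step that combined libraries into 1 value per gene and stage was not given in the sources used here, and the table does not hold the read count behind a value, so no counting interval is given. The table holds 0 columns of other samples.

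The rule was applied to all 30392 genes with a pseudocount of 1, and courses, stage shares and position groups were calculated in Python 3.11.15 with numpy 2.4.6, pandas 2.3.3 and matplotlib 3.10.9. The scripts were tested on simulated data. The members and lists were chosen with earlier results of these data known. Named were members in the study's text or tables, the 10 highest at Day 45, the 10 largest rises to Day 30, the 5 largest and 5 smallest ratios of Day 45 to Day 30, runs of 3 or more and the 2 genes on either side of each limit, with other copies of named families. Outside this rule, Psote05G0161800, Psote09G0041100, Psote09G0040900, Psote07G0197200 and the members of pairs were named after their values were seen. The reference gene table supplied is of another assembly and matched 0 gene IDs, so no sequence is shown.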

Additional observations from a re-analysis of the deposited data

How the results depend on the processing

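The number of members was 117 as reported. It was 258 with a ratio of at least 4, 56 with at least 16, 177 with no condition on Day 45 and 62 with a pseudocount of 5, of which 60 were shared. Under the 8 other planned settings it ranged from 84 to 137, and with every value moved by the rounding error in the least favourable direction it was 103. Scaling each stage to the same sum gave 109, of which 106 were shared. Setting the limit between courses at 2 times gave 71 plateau genes and 0 declining ones, the latter fixed by the Day 45 condition, which no gene that declined by 2 times can meet, and a limit of 5 to 4 gave 23 plateau genes. The other counts stayed within 1.5 times of those reported, and so did the Day 45 share, at 4.43% without Psote01G0148400. Without members in overlapping models 110 remained and without models under 500 bp 113, both chosen after seeing the data. No paired analysis was possible because the table holds 1 value per stage, and for the same reason no replicate could be left out. The table holds neither the spread between plants nor read counts, so replicate error is missing for every comparison of stages.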
